A study of Oncorhynchus mykiss with 18 samples.

Results

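Of the 616 DSB hotspots in the testes of rainbow trout TAC-1 (*Prdm9* 1/5), 393 carried no H3K4me3 peak of the same testes at their centre. These hotspots without H3K4me3 were chosen by measured values, namely the overlap of the central 400 bp of each DMC1-SSDS peak with the TAC-1 H3K4me3 list. The remaining 223 hotspots had at least 1 bp of an H3K4me3 peak in this window and are called hotspots with H3K4me3. The DMC1-SSDS lists of the 3 fish hold 2749 hotspots in all.

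In mammals, meiotic DSBs gather where the methyltransferase PRDM9 sits on DNA, and nucleosomes beside such a site bear H3K4me3 together with H3K36me3. Which sites these are is set by the zinc fingers of the protein. DMC1 coats the single-stranded DNA on both sides of a DSB, so that sequencing this DNA (DMC1-SSDS) maps hotspots, whereas H3K4me3 is also found at gene promoters and H3K36me3 along transcribed genes, without PRDM9. Different alleles usually differ in these fingers and in the sites bound.

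TAC-1 was at gonadal maturation stage III, and its DMC1-SSDS and ChIP-seq for both histone marks were each done in 2 replicates. TAC-3 (*Prdm9* 2/6, stage III) gave the same 3 kinds of list, and RT-52, of genotype *Prdm9* 1/2 and at stage IV, a DMC1-SSDS list only. RT-52 therefore shares allele 1 with TAC-1, and TAC-3 shares no allele with it. All 3 fish were of the INRA-AUT strain, and each genotype was a single fish, so that genotype and fish cannot be told apart. The DMC1 antibody was raised in rabbit for both TAC fish, and in rabbit and guinea pig for RT-52. Both replicates were merged into 1 list per fish and target, without values per replicate. The tests below therefore count hotspots of these fish. Neither they nor the 95% Wilson intervals cover the spread between replicates or between fish, and the read depth behind each value is unknown from the lists.

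The lists differed widely in size, from 209 hotspots in TAC-3 to 1924 in RT-52, and from 40535 to 162044 histone peaks. The TAC-1 H3K4me3 list, with 153665 peaks, covered 4.71% of the placed genome, and 66.4% of its peaks overlapped a TAC-1 H3K36me3 peak. An H3K4me3 peak of TAC-1 lay at a boundary of 14 of 14 placed germ cell genes, among them *dmc1*, *sycp1* and *spo11*. The same held for 4 of 6 placed genes of somatic testis cells, all but *gsdf* and *star*. The share over all genes is not given here, so these counts do not identify the tissue.

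**Figure D1:**
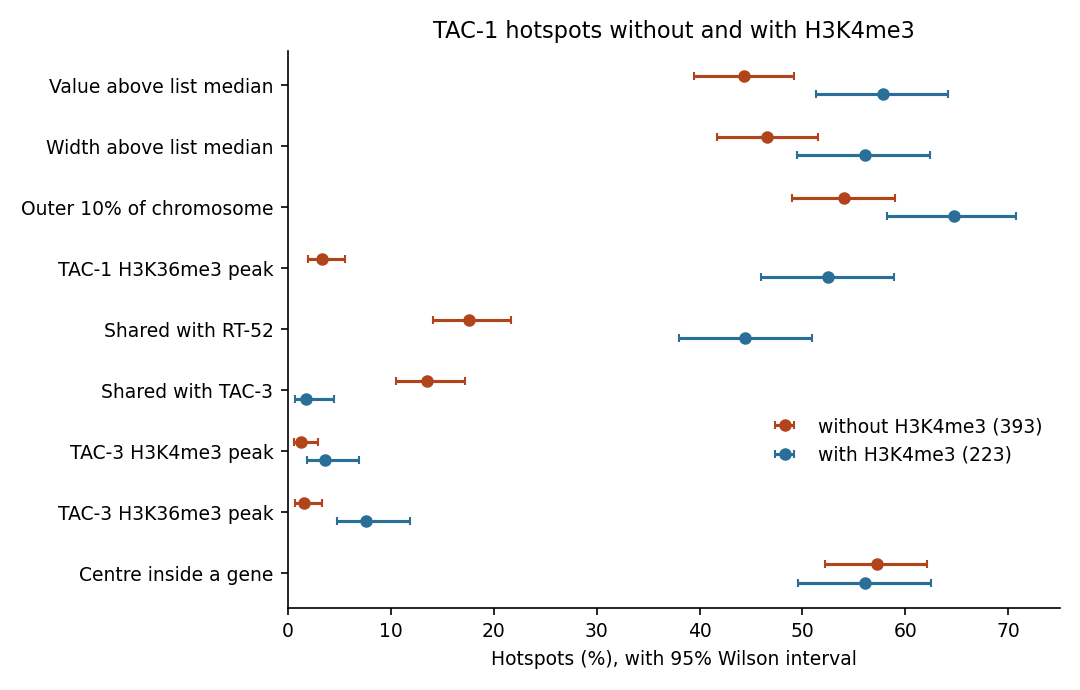
Percentage of TAC-1 hotspots without H3K4me3 (393) and with H3K4me3 (223) that had each feature. The shares in the outer 10% and inside a gene are over the 374 and 221 hotspots placed on chromosomes. Points are shares, and bars are 95% Wilson intervals over hotspots. The shares lie farthest apart for a TAC-1 H3K36me3 peak (3.31% and 52.5%) and for sharing with RT-52 (17.6% and 44.4%), and sharing with TAC-3 runs the other way (13.5% and 1.79%).

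The H3K4me3 peaks around the hotspots were what the rule used, and are described only. The nearest H3K4me3 peak lay 3 to 179284 bp from the central window of a hotspot without H3K4me3, with a median of 3175 bp over the 388 hotspots on sequences with a peak and quartiles of 802 and 8813 bp. A peak was found within 1 kb of the window in 107 hotspots (27.2%) and within 5 kb in 235 (59.8%). In 31 it was more than 20 kb away, and 5 lay on unplaced scaffolds with no H3K4me3 peak at all. Over their full length, 90 of the 393 hotspots (22.9%) did overlap an H3K4me3 peak, outside the central 400 bp.

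The border between both sets was narrow for a small number of hotspots. Just inside, 12 hotspots had an H3K4me3 peak within 50 bp of the window, and the closest gaps were 3, 9, 11, 14 and 19 bp. Just outside, 14 hotspots had less than 50 bp of the window covered, and the smallest overlaps were 2, 2, 5, 8 and 12 bp. Most hotspots with H3K4me3 were far from this border, since the window was fully covered in 129 of 223. The H3K4me3 peak nearest to a hotspot without H3K4me3 had a median MACS2 score of 261, against 699 for the peak of a hotspot with H3K4me3. The median score of the whole TAC-1 H3K4me3 list was 250.

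**Figure D2:**
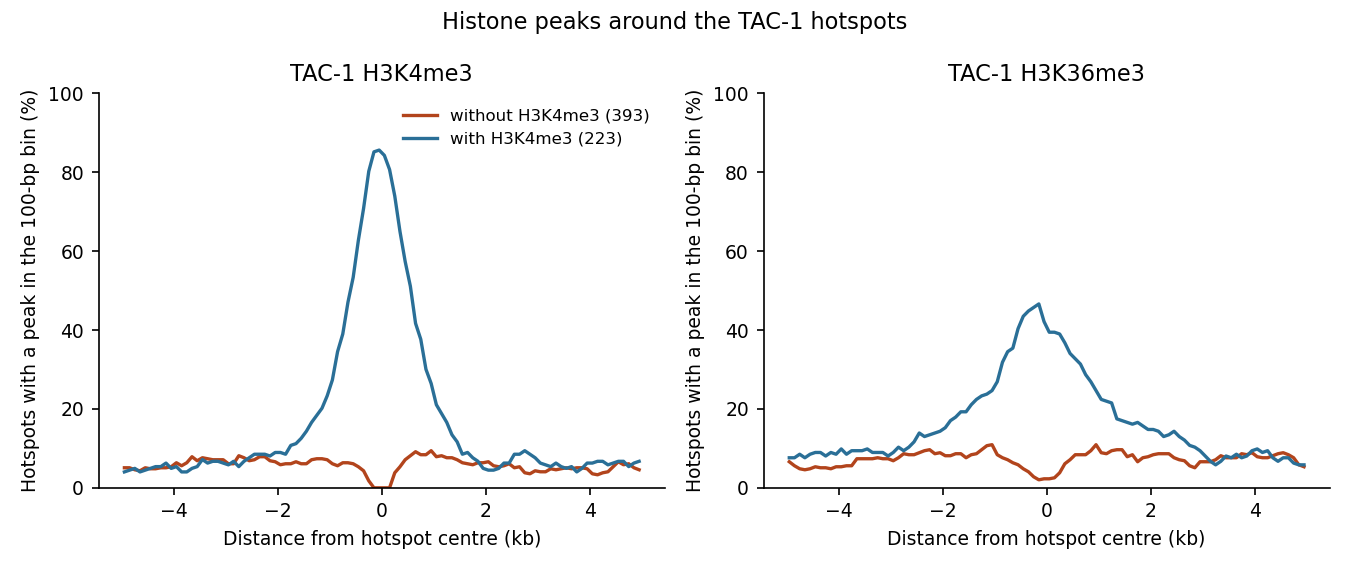
Percentage of TAC-1 hotspots with an H3K4me3 peak (left) or an H3K36me3 peak (right) in each 100-bp bin within 5 kb of the hotspot centre, for hotspots without and with H3K4me3. The H3K36me3 line of hotspots without H3K4me3 stays at or below 10.9% and falls to 2.29% at the centre, where hotspots with H3K4me3 reach 40.8%. The empty centre on the left is set by the rule. The low centre on the right is not free of it, since 62.4% of H3K36me3 peaks lie on an H3K4me3 peak.

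H3K36me3, the other mark that PRDM9 deposits, was rare at the centre as well. A TAC-1 H3K36me3 peak overlapped the centre of 13 of 393 hotspots without H3K4me3 (3.31%, 1.94% to 5.58%), against 117 of 223 hotspots with H3K4me3 (52.5%, 45.9% to 58.9%). Over all 616 hotspots the share was 21.1%. This difference of 49.2 percentage points had an adjusted exact p of 1.24e-46 (Fisher's exact test, two-sided, adjusted over 9 comparisons by Benjamini-Hochberg, as for the comparisons that follow). Both histone lists overlap each other, with 62.4% of H3K36me3 peaks on an H3K4me3 peak, so that H3K36me3 was not free of the rule. How much of the difference comes from this was not tested. In the central 2 kb, an H3K36me3 peak was found at 94 of 393 hotspots without H3K4me3 (23.9%) and 159 of 223 with it (71.3%). TAC-1 H3K36me3 peaks covered 5.58% of the placed genome.

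In 100-bp bins, H3K36me3 around hotspots without H3K4me3 was most frequent 1050 bp before and 950 bp after the centre. In each of these bins, 10.9% of the hotspots had a peak. It was found in 2.29% at the centre and in 6.41% of the hotspots at the far ends of the 5-kb flanks. The low share at the centre is not free of the rule, because both histone lists overlap each other. Hotspots with H3K4me3 had their highest H3K36me3 share, 46.6%, at 150 bp before the centre, and 7.96% at the far ends. The nearest H3K36me3 peak was a median of 3313 bp from the window of a hotspot without H3K4me3, and 109 of the 393 (27.7%) had one within 1 kb.

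The 13 hotspots with H3K36me3 but no H3K4me3 at the centre had modest values, between 17 and 107, where the median of the TAC-1 list was 58. Over their full length, 3 of the 13 did overlap an H3K4me3 peak. The value of a hotspot is the whole number that the authors give to it, and has no unit. Their description holds a strength normalised on adjacent regions, but the lists do not state that the value is this strength. The highest, 107, lay on chromosome 27 (46945103 to 46946852), 891 bp from *guca1c*, which encodes a guanylate cyclase activator in vertebrate photoreceptors. It was the 1 hotspot among the 13 shared with RT-52, and its nearest H3K4me3 peak was 25235 bp away. The next was on chromosome 15 (77498261 to 77500306, value 68) in the protein-coding gene LOC110515635. On chromosome 25, a hotspot of value 57 (45024350 to 45026971) lay in *dctn1b*, a gene for a subunit of dynactin, the partner of the dynein motor. Of the 13, 10 had their centre inside a gene (76.9%, 49.7% to 91.8%), an interval that holds the 56.8% of all placed TAC-1 hotspots. The genes named next were picked with their values known. *chd1*, which encodes a chromatin remodeller, held a pair of such hotspots with centres 1095 bp apart on chromosome 5 (9719247 to 9720672, value 17, and 9720010 to 9722099, value 46). Both overlapped the same H3K36me3 peak of TAC-1, and a TAC-3 H3K36me3 peak as well. Other host genes were *bbs9*, whose product belongs to the BBSome of cilia, and *slc40a1*, the iron exporter ferroportin.

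The rule had not used the histone lists of TAC-3, but these are not free of it wherever both fish carry a peak at the same site. How much of the differences below comes from this was not tested. Peaks of TAC-3 covered 1.98% of the placed genome for H3K4me3 and 3.15% for H3K36me3. A TAC-3 H3K4me3 peak overlapped 5 of 393 hotspots without H3K4me3 (1.27%, 0.545% to 2.94%) and 8 of 223 hotspots with H3K4me3 (3.59%, 1.83% to 6.92%), with 2.11% over all 616. These shares did not differ beyond the threshold (adjusted exact p = 0.0871, Fisher's exact test). Without chromosome 2 the shares were 1.08% and 3.96%, and the adjusted exact p was 0.0343. All 5 hotspots were shared with neither fish, as were 273 of all 393 hotspots without H3K4me3. The highest of the 5 had a value of 165 and lay on chromosome 2 (15328699 to 15331116). For H3K36me3 of TAC-3, the counts were 6 of 393 (1.53%, 0.702% to 3.29%) and 17 of 223 (7.62%, 4.81% to 11.9%), against 3.73% overall (adjusted exact p = 0.000511). Within the chromosome interior beyond the outer 10%, these counts were 1 of 172 and 3 of 78, with an adjusted exact p of 0.164.

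Sharing with the other DMC1-SSDS lists differed between both sets, and in opposite directions. The central 400 bp of 69 of 393 hotspots without H3K4me3 overlapped that of an RT-52 hotspot (17.6%, 14.1% to 21.6%), against 99 of 223 hotspots with H3K4me3 (44.4%, 38.0% to 51%). The share over all 616 was 27.3%, and the adjusted exact p was 7.12e-12. For TAC-3, which has no *Prdm9* allele in common with TAC-1, 53 of 393 hotspots without H3K4me3 were shared (13.5%, 10.5% to 17.2%), and 4 of 223 with H3K4me3 (1.79%, 0.7% to 4.52%). Here the share over all 616 was 9.25% and the adjusted exact p was 5.08e-07. Hotspots without H3K4me3 thus made up 53 of the 57 peaks common to TAC-1 and TAC-3. Whether these common peaks are DSB hotspots is in doubt, because in the study their forward and reverse fragments lacked the asymmetry of such hotspots. The lists hold no strand, so this was not tested here. Without the peaks common to both TAC fish, RT-52 sharing was 67 of 340 (19.7%) against 99 of 219 (45.2%), with an adjusted exact p of 1.08e-09. As a share of the other lists, they met 70 of 1924 RT-52 hotspots (3.64%) and 53 of 209 TAC-3 hotspots (25.4%). RT-52 hotspots met by hotspots with H3K4me3 numbered 99 (5.15%).

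The 393 hotspots fell into 67 shared with RT-52 only, 51 with TAC-3 only, 2 with both and 273 with neither. Hotspots shared with RT-52 only had a median value of 74 (95% interval 65 to 85, range 30 to 373). Those shared with TAC-3 only had a median of 66 (54 to 84, range 25 to 1691), and those shared with neither a median of 48 (45 to 51, range 4 to 650). The gap to the nearest H3K4me3 peak also varied, with medians of 1525 bp for RT-52 only, 3574 bp for TAC-3 only and 3327 bp for neither.

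By distance to the nearest TAC-1 H3K4me3 peak, a measure that the rule had used, sharing is given without a test. With RT-52 were shared 31 of 107 hotspots with a peak within 1 kb of the window (29.0%), 15 of 128 at over 1 to 5 kb (11.7%), 20 of 122 at over 5 to 20 kb (16.4%) and 3 of 31 farther away (9.68%). The median values of these 4 classes were 63, 51, 50.5 and 49, so that the nearest class was also the one of highest value. In the same order, 9 of 107 (8.41%), 25 of 128 (19.5%), 13 of 122 (10.7%) and 5 of 31 (16.1%) were shared with TAC-3. For TAC-3 the nearest class thus had the lowest share.

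RT-52 sharing varied with the value of the hotspot. The comparisons within a set of hotspots, here and below, are among 12 that were added with the values known and adjusted together. Of the hotspots without H3K4me3 whose value was above the list median of 58, 52 of 174 were shared with RT-52 (29.9%), against 17 of 219 at or below it (7.76%, adjusted exact p = 6.09e-08). Hotspots with H3K4me3 had 61 of 129 above (47.3%) and 38 of 94 at or below the median (40.4%, adjusted exact p = 0.372). The odds ratios, 5.06 and 1.32, differed from each other (Zelen's exact test, adjusted exact p = 0.00226). In the lowest 25% of the list by value, 7 of 114 hotspots without H3K4me3 (6.14%) and 17 of 48 with H3K4me3 (35.4%) were shared. In the highest 25%, the counts were 23 of 82 (28%) and 30 of 70 (42.9%). Sharing with TAC-3 was also more frequent among the hotspots without H3K4me3 above the median, with 33 of 174 (19.0%) against 20 of 219 (9.13%, adjusted exact p = 0.00934).

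**Figure D3:**
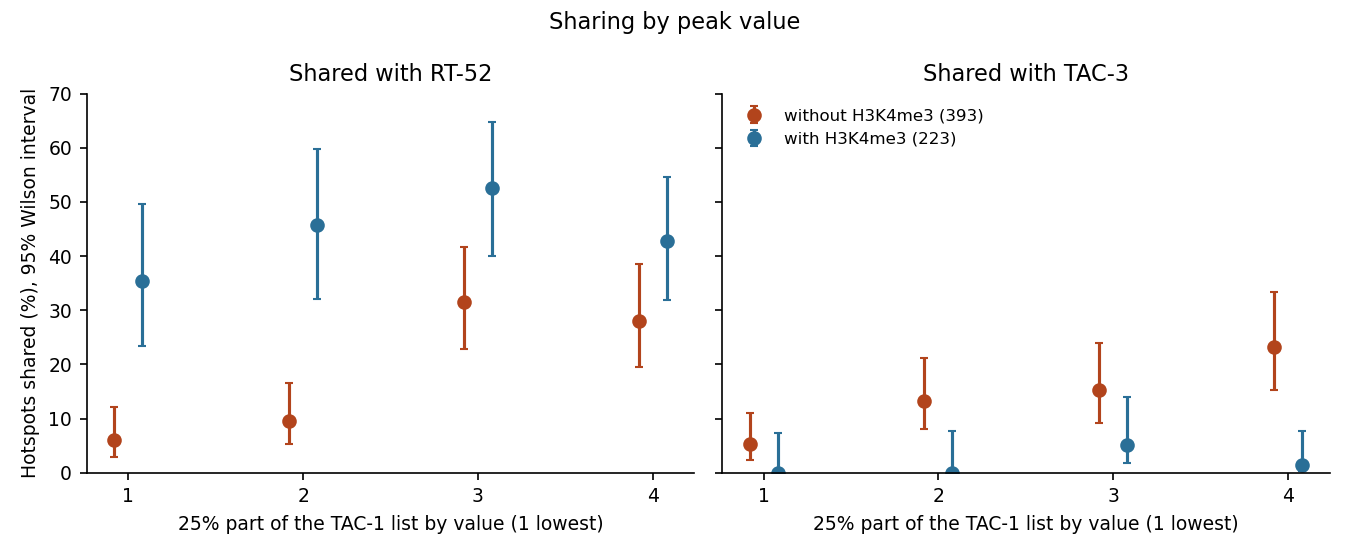
Percentage of TAC-1 hotspots without and with H3K4me3 shared with RT-52 (left) and TAC-3 (right), in 4 parts of 25% of the TAC-1 list in order of value. Bars are 95% Wilson intervals over hotspots. For RT-52, hotspots without H3K4me3 are at 6.14% and 9.52% in the 2 lower parts and at 31.5% and 28% in the 2 upper ones, and hotspots with H3K4me3 range from 35.4% to 52.5%.

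The RT-52 partners themselves had similar values in both sets. Partners of hotspots without H3K4me3 had a median RT-52 value of 218 (95% interval 159 to 326), and partners of hotspots with H3K4me3 a median of 202 (178 to 245). Above their joint median lay 36 of 69 and 48 of 99 (adjusted exact p = 0.754). The median of the whole RT-52 list was 93, and 58 of the 69 partners of hotspots without H3K4me3 were above it, as were 86 of the 99 others. Across shared hotspots, the TAC-1 value followed the RT-52 value with a Spearman rho of 0.460 over the 69 hotspots without H3K4me3 and 0.546 over the 99 with it. For the 53 hotspots shared with TAC-3, rho between the TAC-1 and TAC-3 values was 0.737. These are correlations across sites of 2 fish, which are not independent replicates.

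At the TAC-3 partners, H3K4me3 was missing in TAC-3 too. None of the 53 TAC-3 hotspots shared with hotspots without H3K4me3 had a TAC-3 H3K4me3 peak at its centre, against 53 of the other 156 TAC-3 hotspots (34.0%, adjusted exact p = 7.98e-08, Fisher's exact test, among the 12 added). The upper limit of the Wilson interval for 0 of 53 is 6.76%. The other 156 include the 4 TAC-3 partners of hotspots with H3K4me3, and 0 of these 4 had such a peak either. The absence was thus not limited to partners of hotspots without H3K4me3, though 4 sites are too few for a comparison between both sets. The 53 sites in TAC-3 were not used by the rule, but each overlaps a site that was chosen for lacking H3K4me3 in TAC-1.

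Several of these shared hotspots had the same bounds in both lists to the base. Of the 53, 24 had the same start as their TAC-3 partner, 21 the same end, and 14 both. All 14 were 1522 to 1530 bp wide, with values of 39 to 214 in TAC-1, and 4 of them were on unplaced scaffolds. Among the 69 hotspots shared with RT-52, 2 had the same start and end. No hotspot with H3K4me3 had the same bounds in another list, among 99 shared with RT-52 and 4 with TAC-3. Without the hotspots of equal bounds, TAC-3 sharing was 39 of 378 (10.3%) against 4 of 223 (1.79%, adjusted exact p = 8.86e-05).

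Widths held the same feature. The width was above the list median of 1735 bp in 183 of 393 hotspots without H3K4me3 (46.6%, 41.7% to 51.5%) and in 125 of 223 with H3K4me3 (56.1%, 49.5% to 62.4%), against 50% overall (adjusted exact p = 0.0375). Median widths were 1656 and 1812 bp. A narrow band of 50 bp from 1500 bp upwards held 68 hotspots without H3K4me3 (17.3%) and 13 with H3K4me3 (5.83%, adjusted exact p = 7.97e-05, among the 12 added). In this band were 23 of the 53 hotspots without H3K4me3 shared with TAC-3 (43.4%), against 45 of the other 340 (13.2%, adjusted exact p = 3.37e-06). The band was set with the widths known, and the 14 hotspots with the same bounds in TAC-3 all lie in it. Both p-values for the band therefore describe these widths and are no independent test of them. With the band left out, the median test of width compared 49.5% with 50.5% of hotspots, and the adjusted exact p was 0.860. The band lies below the list median and held a larger share of the hotspots without H3K4me3. Leaving it out therefore narrows the difference by its choice, and is no independent test either. The call on width was lost or its direction turned in 9 of 14 alternatives. Without the hotspots of the band, TAC-3 sharing was 30 of 325 (9.23%) against 4 of 210 (1.90%), with an adjusted exact p of 0.00132 (Fisher's exact test). Why peaks gathered at these widths was not tested.

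**Figure D4:**
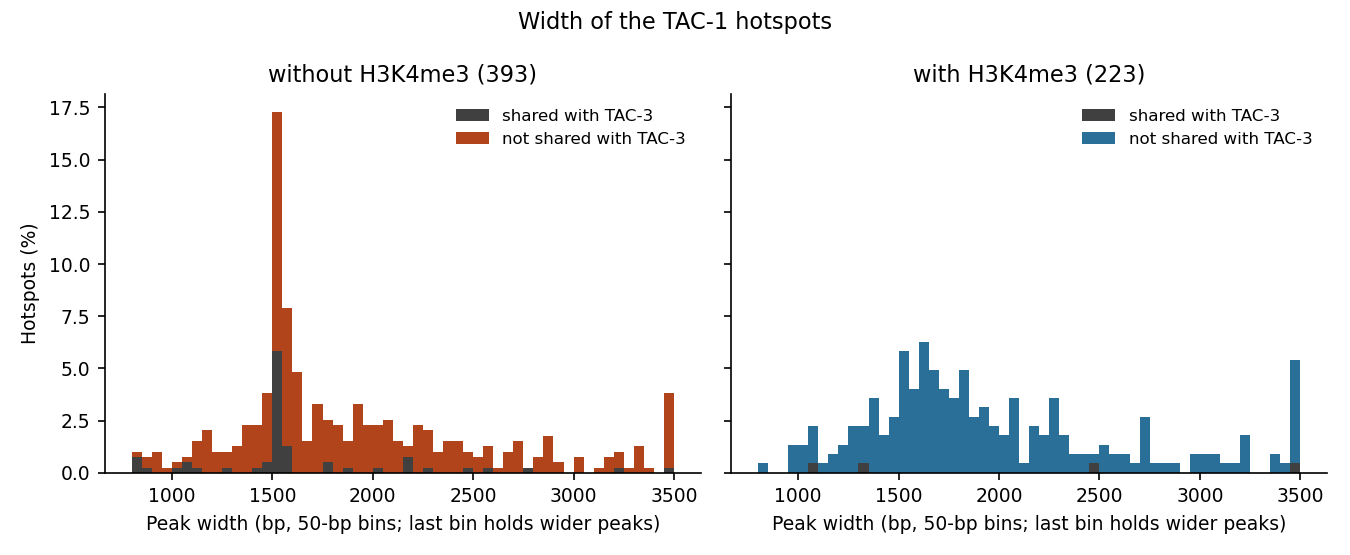
Widths of the TAC-1 hotspots without H3K4me3 (left) and with H3K4me3 (right), in 50-bp bins as a percentage of each set. Dark bars are hotspots shared with TAC-3, and the last bin holds all wider peaks. The bin from 1500 bp holds 17.3% of the hotspots without H3K4me3 and 5.83% of those with it.

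Hotspots without H3K4me3 had lower values. The value was above the list median in 174 of 393 (44.3%, 39.4% to 49.2%), against 129 of 223 hotspots with H3K4me3 (57.8%, 51.3% to 64.1%) and 49.2% overall (exact median test, adjusted exact p = 0.00256). Median values were 54 (95% interval 50 to 58) without and 64 (60 to 74) with H3K4me3. The mean was 78.3 ± 109 (SD, 393 hotspots) without and 87.0 ± 67.2 (223 hotspots) with H3K4me3. The ranges overlapped fully, at 4 to 1691 and 10 to 489. Within the outer 10% of chromosomes alone the shares above the median were 44.1% and 52.4%, with an adjusted exact p of 0.164. In the rest of the chromosomes they were 45.9% and 59.0%, also with an adjusted exact p of 0.164.

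The 3 highest values of the whole list were found without H3K4me3, of which 2 were common to TAC-1 and TAC-3. Hotspots without H3K4me3 made up 393 of all 616 in the list, so these 3 alone do not set them apart. The highest, 1691, belonged to a hotspot of only 812 bp on chromosome 27 (40361001 to 40361812) inside the protein-coding gene LOC110508036. Its nearest H3K4me3 peak was 77 bp from the window. It was shared with TAC-3, where its partner also led the list with a value of 1769 (40361013 to 40362558). The second, 855, was on chromosome 7 (64674222 to 64675625) in LOC110528239 and was shared with TAC-3, at a TAC-3 value of 889. The third, 650, was shared with neither fish and lay on chromosome 14 (31923127 to 31926472), 19931 bp from the nearest gene. A hotspot of value 402 on chromosome 18 (67563158 to 67564717) had a TAC-3 partner of 306 whose centre was 3 bp away. A hotspot of value 253 on chromosome 4 (5644118 to 5645709) had a TAC-3 partner of 295. Of the 10 highest peaks without H3K4me3, 4 were thus shared with TAC-3, including the 2 highest, and the doubt about the peaks common to both fish applies to these 4. The highest value of the others was 650.

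The highest value of a hotspot without H3K4me3 that RT-52 shared was 373, on an unplaced scaffold, and its RT-52 partner had 674. On chromosome 20, a hotspot of value 365 (5810815 to 5815612) spanned 4798 bp and had its nearest H3K4me3 peak 89 bp from the window. Its RT-52 partner had a value of 437. The next one, on chromosome 12 (4178820 to 4180465), had values of 220 in TAC-1 and 278 in RT-52, and lay in LOC110536763. Hotspots of high value shared with neither included one of 367 on chromosome 17 (89744313 to 89747620), with H3K4me3 20 bp from the window. It lay 20157 bp from *pcbp4*, a gene for a poly(C)-binding protein. Another, of value 323, was in LOC110491178 on chromosome 16 (73611879 to 73614746), 10332 bp from H3K4me3. A further one, of value 292, lay on chromosome 15 (3365829 to 3367684), 17325 bp from H3K4me3.

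Only 2 hotspots without H3K4me3 were shared with both fish. On chromosome 5 (60946 to 62017), close to the chromosome end, the values were 109 in TAC-1, 106 in RT-52 and 118 in TAC-3. On chromosome 15 (39289559 to 39291088), the same bounds appeared in all 3 lists, with values of 55 in TAC-1, 32 in RT-52 and 53 in TAC-3. This was also the hotspot farthest from H3K4me3, at 179284 bp. The next in distance, at 141825 and 55215 bp, were on unplaced scaffolds, were 1524 bp wide and had the same bounds in TAC-3. At the other extreme, the gap of 3 bp belonged to a hotspot of value 49 on chromosome 12 (98290323 to 98292556), shared with neither fish. The widest hotspots spanned 5372 bp on chromosome 10 (61023001 to 61028372, value 147), 5290 bp on chromosome 19 (value 84) and 5216 bp on chromosome 11 (value 68).

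Along the chromosomes, hotspots without H3K4me3 reached further inwards. Of the 374 placed on chromosomes, 202 lay in the outer 10% at either end (54.0%, 48.9% to 59.0%), against 143 of 221 with H3K4me3 (64.7%, 58.2% to 70.7%). The share of all placed hotspots was 58.0%, and the adjusted exact p was 0.0189. This call was lost in 6 of 13 alternatives. The adjusted exact p was 0.0538 without chromosome 12, and 0.0566 without the hotspots in the 50-bp band of widths. The contrast was wider for the interior, the part more than 20% of the length from both ends. It held 91 of 374 hotspots without H3K4me3 (24.3%, 20.3% to 28.9%) and 7 of 221 with H3K4me3 (3.17%, 1.54% to 6.39%), with an adjusted exact p of 2.72e-12 (among the 12 added). This part makes up 60% of the placed length. H3K4me3 peaks covered 5.06% of it, against 4.06% of the outer 10%. How this coverage relates to the contrast was not tested.

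**Figure D5:**
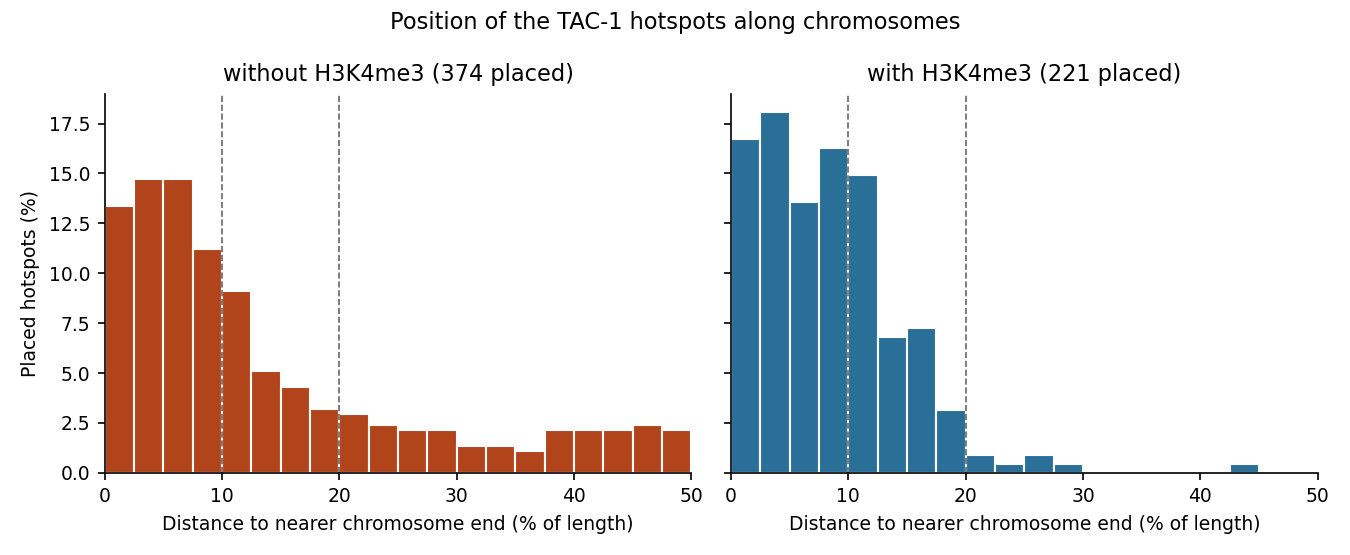
Distance of TAC-1 hotspots to the nearer chromosome end, in % of the chromosome length, for hotspots without H3K4me3 (left, 374 placed) and with H3K4me3 (right, 221 placed). Bars give the percentage of placed hotspots, and dashed lines mark 10% and 20%. Beyond 20%, hotspots without H3K4me3 continue to the middle of the chromosomes (24.3%), and hotspots with H3K4me3 are few (3.17%).

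The interior hotspots without H3K4me3 were shared differently from those closer to the ends. With TAC-3, 21 of 91 in the interior were shared (23.1%), against 26 of 283 in the outer 20% (9.19%, adjusted exact p = 0.00168). With RT-52, 5 of 91 in the interior were shared (5.49%), against 63 of 283 (22.3%, adjusted exact p = 0.000281). Their median value was 45 (95% interval 40 to 51), against 57 (52 to 64) in the outer 10%. Of the 91, 66 were shared with neither fish, a class that holds 273 of all 393 hotspots without H3K4me3. Without the hotspots shared with TAC-3, the interior held 70 of 327 hotspots without H3K4me3 (21.4%) and 7 of 217 with it (3.23%). In unplaced scaffolds lay 19 of 393 hotspots without H3K4me3 (4.83%) and 2 of 223 with it (0.897%, adjusted exact p = 0.0115). Without the hotspots shared with TAC-3, these counts were 13 of 340 and 2 of 219, with an unadjusted exact p of 0.0570.

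Every chromosome had hotspots without H3K4me3, between 4 and 22, and chromosome 2 had the most. As a share of the hotspots of a chromosome, they ranged from 26.3% on chromosome 20 (5 of 19) to 87.5% on chromosomes 6 (14 of 16) and 23 (7 of 8), with a median of 64.9%. These shares rest on few hotspots, and the Wilson intervals were 11.8% to 48.8% for chromosome 20 and 64.0% to 96.5% for chromosome 6. Neighbouring hotspots were rare, since 23 of 393 hotspots without H3K4me3 (5.85%) and 12 of 223 with H3K4me3 (5.38%) had another TAC-1 hotspot within 10 kb.

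Genes held about the same share in both sets. The centre was inside a gene in 214 of 374 placed hotspots without H3K4me3 (57.2%, 52.2% to 62.1%), and in 124 of 221 with H3K4me3 (56.1%, 49.5% to 62.5%). Over all placed hotspots the share was 56.8%, and genes cover 57.6% of the placed length. No difference was detected (adjusted exact p = 0.798, Fisher's exact test). Of the 214, 209 were in protein-coding genes, and 7 lay in more than 1 gene, of which a protein-coding one was named. In all, 202 genes held a hotspot without H3K4me3, and 11 of them more than 1. Up to 3 were found in 1 gene, LOC118943990. The named genes with a pair were *chd1*, *cdkal1*, which encodes a tRNA-modifying enzyme, *cadm2a*, for a cell adhesion molecule, and *tenm4*, for a teneurin of the cell surface. This choice was made with their values in view. The gene table gives neither strand nor exons, so that exons, introns and promoters were not told apart.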

How the data were processed

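Lists of DMC1-SSDS peaks from all 3 fish, and of peaks for both histone marks from the 2 TAC fish, were used as deposited, on USDA_OmykA_1.1. By their description, the authors called single-stranded fragments with hotSSDS and MACS2 2.2.7.1 against input, kept pooled peaks that passed the IDR filter, recentered them and normalised hotspot strength on adjacent regions. For the histone marks they aligned reads with BWA 0.7.17-r1188, called peaks with MACS2 in each replicate, merged peaks within 1 kb with the mean score, and kept those found in both replicates with 25% reciprocal overlap. Tests of the deposited scores stayed within each list. Between lists, the scores of shared hotspots were given side by side and correlated by rank, and their differences were not tested. That the score of a DMC1 peak is the normalised strength is not stated in the lists.

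Windows of 400 bp around hotspot centres were compared with each other and with whole histone peaks, with 1 bp as the minimum overlap. Chromosome names were matched to the RefSeq gene table through histone peaks at gene boundaries, and 32 chromosomes were placed. Values and widths were compared by an exact median test (Fisher's exact test on the counts above the list median), shares by Fisher's exact test, and odds ratios by Zelen's exact test, all two-sided. Significance was called at an adjusted p below 0.05 (Benjamini-Hochberg). Wilson intervals cover counting error only.

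The hotspots described, the lists and the tests were chosen with earlier results of these data known. The sites named were the 10 highest values, the 3 widest, the 5 nearest to and 3 farthest from H3K4me3, those shared with both fish, and the 3 highest of each sharing class and with H3K36me3 or TAC-3 H3K4me3. Alternatives changed the membership window and overlap, the number of H3K4me3 peaks, the hotspots compared, the width of the chromosome ends and the chromosomes used. Python 3.11.15, numpy 2.4.6, pandas 2.3.3, SciPy 1.17.1 and matplotlib 3.10.9 were used, and overlaps were checked against bedtools 2.31.1 on artificial lists. No genome sequence was used here, so that sequences and motifs were not analysed here.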

Additional observations from a re-analysis of the deposited data

Results flagged for a closer look

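The relation between the value of a hotspot and RT-52 sharing differed between the 2 sets of TAC-1 hotspots (Zelen's exact test, p = 0.00151 before adjustment). Among hotspots without H3K4me3, 29.9% of those above and 7.76% of those at or below the list median were shared with RT-52. Among hotspots with H3K4me3, these shares were 47.3% and 40.4%. The ratio of both odds ratios was 3.83. It was 2.69 to 5.89 under 9 alternatives, and only within the outer 10% of chromosomes did the test miss the threshold, with a ratio of 3 and an exact p of 0.0644. The test was chosen after the values were seen.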

How the results depend on the processing

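The differences, hotspots without minus hotspots with H3K4me3, are in percentage points. H3K36me3 of TAC-1 (-56.1 to -35.0), RT-52 sharing (-40.6 to -17.4) and TAC-3 sharing (7.33 to 15.9) kept direction and call under 15, 15 and 14 alternatives. For the share in the outer 10%, the difference missed the threshold at -7.53 with H3K4me3 sought in the central 1000 bp, -9.17 without hotspots shared with TAC-3, -6.31 above the median value, -2.20 with ends of 1/30 of the length, -9.20 without the 50-bp band of widths from 1500 bp and -8.99 without chromosome 12 (the call was lost without 2 of the 32 chromosomes). With ends of 20% it was -21.2, which is the interior comparison above counted from the ends and no further result. For width the difference missed the threshold at -8.49 when 25% of the window had to be covered, and at -5.78 without hotspots shared with TAC-3. It also missed it at -9.70 in the outer 10% and -11.2 in the rest of the chromosomes. Further misses were -3.69 for the highest 25%, -0.938 without the 50-bp band of widths from 1500 bp and -6.91 without hotspots of equal bounds. Another was -7.49 without chromosome 24 (lost without 9 of the 32), and up to the median value the difference turned to 1.29. Value missed the threshold at -8.39 in the outer 10% and -13.0 in the rest of the chromosomes. In that rest, H3K36me3 of TAC-3 also missed it, at -3.26. H3K4me3 of TAC-3 passed it at -3.70 in the outer 10% and -2.88 without chromosome 2 (passed without 5 of the 32). The share inside genes turned to -0.721 with 25% coverage, -3.09 with as many H3K4me3 peaks as in TAC-3 and -3.73 above the median value. It also turned to -5.02 in the chromosomes beyond the outer 10%, and to -0.742 without chromosome 17. Fewer hotspots entered the tests within parts of the list or regions. Why calls or directions changed was not tested.

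Values rest on 1 fish per genotype, and lists of peaks leave unknown what lies under the authors' thresholds. A hotspot without H3K4me3 therefore is one without a called peak in whole testes, at a depth not given in the lists. No paired analysis was possible because the lists hold 1 set of peaks per fish and target, made from both replicates.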
